A study of Mus musculus with 12 samples.

Results

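The genes described here are the replication-dependent histone genes of the mouse, the clustered gene copies that make the bulk of core and linker histones. They were read from peaks of the histone marks H3K27ac, H3K4me1 and H3K4me3 in cKit+ bone marrow cells of C57BL/6 mice. Members were the protein-coding autosomal genes named H1f1 to H1f6, H2ac, H2bc, H3c or H4c with a number, or carrying an older symbol of the Hist1h to Hist4h series. They number 67 of 20665 protein-coding autosomal genes, 63 found by the newer symbol and 4 by the older one (H4f16, H2bu2, H2aw and H4bc24). Of these, 6 encode the linker histone H1, 18 encode H2A, 18 encode H2B, 12 encode H3 and 13 encode H4. The Hist1 cluster on chromosome 13 holds 54 of them, the Hist2 cluster on chromosome 3 holds 10, the Hist3 cluster on chromosome 11 holds 2, and the Hist4 gene H4f16 stands alone on chromosome 6.

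Chromatin immunoprecipitation with sequencing was run on FACS-purified cKit+ cells of mice labelled with the Phf6 R274X transgene (Tg, 2 libraries per mark) and of wild type mice (WT, 2 libraries per mark), 12 libraries in all. Phf6 encodes a chromatin-associated protein with PHD-like zinc fingers, and R274X is a nonsense change in it. All mice were C57BL/6, and the labels state neither the promoter that drives the transgene, nor the age of the mice, nor whether libraries come from separate animals, so the spread between the 2 libraries of a group may be technical. The files are 12 lists of called peaks without read counts, and sequencing depth cannot be read from them.

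The 12 lists hold 31257 to 42124 peaks for H3K27ac, 100316 to 130348 for H3K4me1 and 34920 to 39584 for H3K4me3. In all 4 H3K4me3 lists the peak names carry the genotype opposite to the sample's label, whereas names and labels match in the other 8 lists. Directions for H3K4me3 below follow the labels and would turn round if the names were right. Replicate 1 of both H3K4me3 groups has peaks at Y-linked genes and none at Xist, whereas the other 10 libraries have peaks at Xist and none at those Y-linked genes. Of 8 marker genes of cKit+ stem and progenitor cells, all 8 have H3K4me3 and H3K4me1 peaks in every library of those marks and 5 have H3K27ac in all 4, with none at Cd34. Of 4 T cell genes 1 has H3K27ac in all 4 libraries, and Cd3e and Cd4 have it in none, whereas all 6 genes of a mature granulocyte list have H3K27ac in all 4 libraries. The cells were measured in bulk, so a mark carried by fewer cells and a mark that is weaker in each cell cannot be told apart.

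Replication-dependent histone genes are transcribed mainly in S phase, when newly copied DNA needs histones, and their messages end in a stem-loop in place of a poly(A) tail. They are short, lack introns as a rule, and lie in clusters in which an H2A and an H2B gene often face away from each other over a shared promoter. Their transcription is gathered in nuclear histone locus bodies around the coactivator NPAT. H3K4me3 and H3K27ac mark active promoters, and H3K4me1 marks the flanks of promoters and enhancers.

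Promoter sequences are shown for 6 members whose peaks carry the descriptions below: the start region shared by H2bc7 and H2ac7, where H3K4me3 and H3K27ac cover all or nearly all of the window, a linker gene (H1f4), its testis counterpart (H1f6), an H4 gene (H4c12), the testis H2B gene H2bc1, and H2bu2, the member with no H3K27ac peak. Each line gives the bases just before the annotated start, 5′ to 3′ on the gene's strand, from RefSeq with build GRCm38.p6, and the H2ac7 line stops where H2bc7 begins. Capitals mark matches on either strand to the CCAAT box, to the TATA box with the letters TATAAA, to the octamer with the letters ATGCAAAT and to the H1 box with the letters AAACACA. None of the 4 motifs contains another.
H2ac7, chr13:23574208-23574380, plus strand: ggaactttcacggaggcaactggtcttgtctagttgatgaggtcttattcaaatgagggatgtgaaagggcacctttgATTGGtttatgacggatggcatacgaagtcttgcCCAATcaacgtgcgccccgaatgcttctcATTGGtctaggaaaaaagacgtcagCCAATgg
H1f4, chr13:23622559-23622808, minus strand: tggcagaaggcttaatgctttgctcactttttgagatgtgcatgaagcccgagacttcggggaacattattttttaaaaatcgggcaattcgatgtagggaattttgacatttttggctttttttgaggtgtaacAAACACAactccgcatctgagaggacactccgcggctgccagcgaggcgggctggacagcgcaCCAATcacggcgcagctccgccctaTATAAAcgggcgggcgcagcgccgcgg
H1f6, chr13:23695561-23695810, plus strand: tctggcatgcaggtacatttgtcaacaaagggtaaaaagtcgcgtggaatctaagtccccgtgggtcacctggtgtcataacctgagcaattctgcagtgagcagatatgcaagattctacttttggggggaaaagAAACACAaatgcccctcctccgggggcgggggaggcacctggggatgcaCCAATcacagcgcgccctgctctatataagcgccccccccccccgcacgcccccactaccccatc
H4c12, chr13:21750554-21750803, minus strand: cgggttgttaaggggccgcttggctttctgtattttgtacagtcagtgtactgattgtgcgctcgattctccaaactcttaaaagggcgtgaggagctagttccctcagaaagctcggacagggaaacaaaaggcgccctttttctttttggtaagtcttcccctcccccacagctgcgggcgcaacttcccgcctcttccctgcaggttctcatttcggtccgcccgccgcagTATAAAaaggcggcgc
H2bc1, chr13:23934157-23934406, minus strand: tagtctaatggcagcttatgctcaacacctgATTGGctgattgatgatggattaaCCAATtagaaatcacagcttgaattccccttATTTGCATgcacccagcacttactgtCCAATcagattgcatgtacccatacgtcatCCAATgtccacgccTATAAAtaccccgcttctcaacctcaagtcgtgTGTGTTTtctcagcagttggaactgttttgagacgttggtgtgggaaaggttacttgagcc
H2bu2, chr11:58948661-58948910, plus strand: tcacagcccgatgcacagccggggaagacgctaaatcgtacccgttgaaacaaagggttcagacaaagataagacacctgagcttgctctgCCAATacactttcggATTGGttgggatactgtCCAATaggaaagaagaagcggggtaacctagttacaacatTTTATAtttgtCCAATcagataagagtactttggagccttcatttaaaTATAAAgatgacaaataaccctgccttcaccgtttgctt

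Over the 250 bases before the start, 62 members have a RefSeq promoter entry, and all genes with one number 16457. CCAAT, the letters bound by NF-Y, is in 82.3% of the members' promoters against 36.2% of all. It is in all 6 H1, all 18 H2A and all 16 H2B promoters with an entry, in 8 of 10 H3 promoters and in 3 of 12 H4 promoters. TATAAA is in 46.8% of the members' promoters against 12.5% of all promoters. The octamer is in 21.0% against 1.63%, with 7 H2A and 6 H2B promoters holding it and none of H1, H3 or H4. The H1 box is in 5 of 6 H1 promoters, in 14.5% of all members' promoters and in 5.54% of all promoters. These are matches of letters, not sites shown to be bound, and the divergent pairs share part of their windows.

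Nearly every histone gene carried all 3 marks. A peak within 2 kb of the gene was present in all 4 libraries of the mark for 67 of 67 members with H3K4me3, against 67.7% of all genes. The same held for 66 of 67 members with H3K27ac, against 52.4% of all genes, and for 63 of 67 with H3K4me1, against 62.3%. In all 12 lists together 63 of 67 members (94.0%) had a peak, against 49.2% of all genes. Members whose windows overlap share peaks: the 67 windows merge into 27 loci, 19 of them in the Hist1 cluster. These counts are descriptions, with no test over the list.

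The 4 members without a peak in every list were H2bu2, H2bc1, H2ac1 and H1f3. H2bu2, an H2B gene of the Hist3 cluster at chr11:58948911-58949372, had no H3K27ac peak in any library. Its H3K4me3 covered 1772 and 1366 bp in Tg, against 1239 and 727 bp in WT, and its H3K4me1 covered 0 and 721 bp in Tg, against 622 and 1399 bp in WT. H3K4me3 was wider in both Tg libraries than in either WT library there, while H3K4me1 overlapped between the groups. H2aw, the neighbouring H2A gene at chr11:58954685-58955192, did have H3K27ac, over 1934 and 1294 bp in Tg and 1936 and 1935 bp in WT. H2bc1 and H2ac1, which encode testis forms of H2B and H2A, lie back to back at one end of Hist1 (chr13:23933725-23934913, the span of both). They share 1 peak of H3K27ac, of 511 and 432 bp in Tg and 459 and 549 bp in WT, and 1 of H3K4me3, of 317 and 293 bp in Tg and 319 and 278 bp in WT. None of these peaks spans both annotated starts, which lie 281 bp apart. Both groups overlap for each mark, and no H3K4me1 peak was called there in any library. H1f3, a linker gene, had no H3K4me1 peak in Tg replicate 1, against 1962 bp in Tg replicate 2 and 1698 and 2026 bp in WT.

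The number of bases under peaks inside a gene's 2 kb window, called covered length here, gives a graded value for each member. Its median over the 67 members was 3655 and 3365 bp for H3K4me3 in Tg, against 3283 and 3188 bp in WT. For H3K27ac the median was 3021 and 3136 bp in Tg, against 3106 and 3069 bp in WT. For H3K4me1 it was 1306 and 2320 bp in Tg, against 1724 and 2572 bp in WT. H3K4me1 thus differed more between replicate 1 and replicate 2 than between the genotype labels, and in both labels replicate 1 was the lower. A window of 4 kb plus a short gene cannot be covered beyond its length, so broad peaks are capped. The H2B gene H2bc7 (chr13:23573760-23574207) shows this: its window of 4448 bp was covered whole by H3K27ac in all 4 libraries and by H3K4me3 in both Tg and in WT replicate 1, with 4360 bp in WT replicate 2. Its divergent partner H2ac7, whose shared start region is printed above, had 4535 and 4535 bp of H3K4me3 in Tg and 4535 and 4447 bp in WT.

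**Figure D1:**
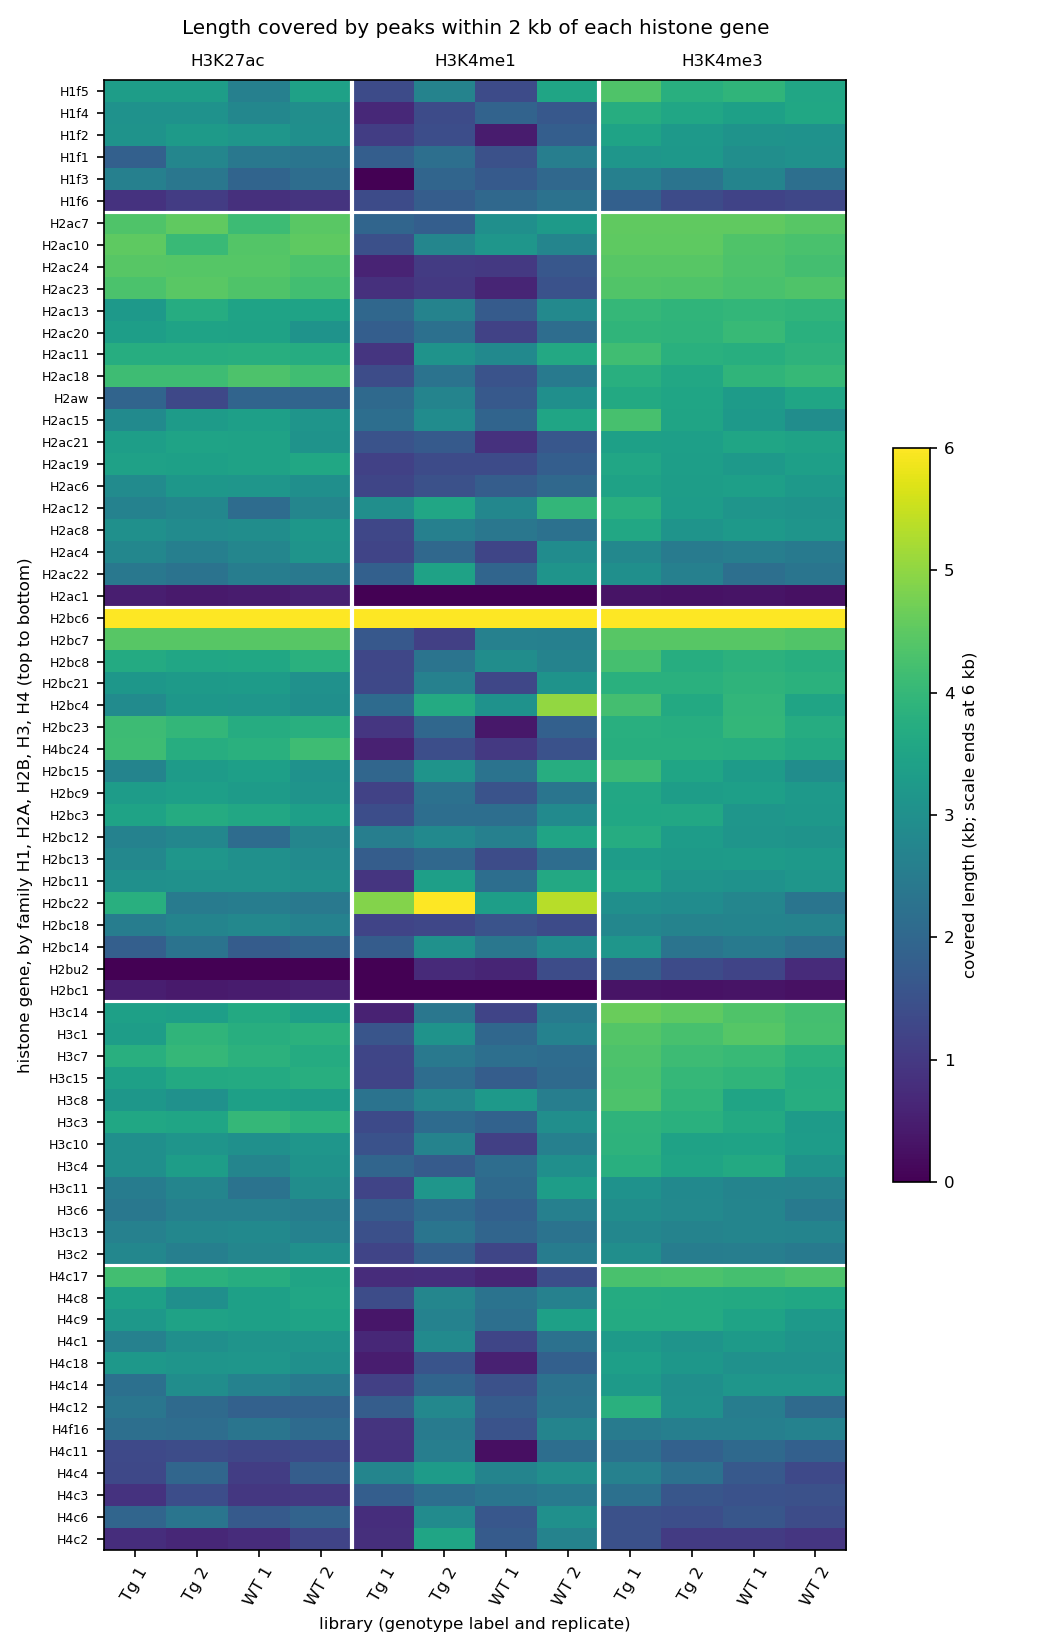
Covered length (kb, colour) of H3K27ac, H3K4me1 and H3K4me3 at each of the 67 histone genes (rows, grouped by family and ordered by mean H3K4me3 length) in the 12 libraries (columns, Tg left of WT within each mark). H2bc1 and H2ac1 are dark in all columns, H2bu2 has no H3K27ac, and H2bc6, whose gene spans over 37 kb, lies past the end of the colour scale.

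By family, H4 genes had the shortest H3K4me3 and H3K27ac lengths. The median over genes of the mean over 4 libraries was 2860.5 bp of H3K4me3 at H4 genes, against 3598 bp at H3, 3495 bp at H2A, 3383 bp at H2B and 3148 bp at H1 genes. For H3K27ac it was 2186 bp at H4 genes, against 3345 bp at H2A, 3155 bp at H3, 3086 bp at H2B and 2645 bp at H1 genes. For H3K4me1 the families lay closer, between 1639 bp at H1 and 2117 bp at H2B genes. Within H4 the spread was wide. H4c17, a Hist1 gene for the core histone H4, had 4274 and 4291 bp of H3K4me3 in Tg and 4242 and 4330 bp in WT. H4c2, another H4 gene at chr13:23756937-23757386, had 1495 and 1037 bp in Tg and 1044 and 955 bp in WT. The lengths of these 2 genes do not overlap in any library, whereas those of the genotype labels overlap at both of them.

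Among linker genes, H1f1 to H1f5 had 2299 to 4350 bp of H3K4me3 in Tg and 2181 to 3921 bp in WT. H1f6, which encodes the testis linker histone H1t, had 1847 and 1370 bp in Tg and 1207 and 1271 bp in WT. Its H3K27ac covered 878 and 1066 bp in Tg and 832 and 903 bp in WT, less than at H1f1 to H1f5 in every library. The windows of H1f6, H2bc4 and H4c3 overlap, so part of this signal is shared. H1f4, the linker gene whose promoter is printed above, had 3054 and 3058 bp of H3K27ac in Tg, against 2780 and 2956 bp in WT, without overlap. H1f5 had 3344 and 3333 bp in Tg and 2615 and 3422 bp in WT, which overlap. H4f16, the lone Hist4 gene, had 2498 and 2593 bp of H3K4me3 in Tg and 2583 and 2649 bp in WT. Genes that extend over a longer annotated span had more room for peaks: H2bc6 covered 9064 and 8347 bp of H3K4me3 in Tg and 8073 and 7494 bp in WT, and 8871 and 13832 bp of H3K4me1 in Tg against 9656 and 13562 bp in WT. H2bc22 and H2bc4 were next in H3K4me1, with 4887 and 6361 bp and 2108 and 3674 bp in Tg, against 3371 and 5362 bp and 3057 and 5038 bp in WT.

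Around the annotated start the 3 marks were arranged differently. At the start itself, H3K4me3 covered 95.2% and 95.2% of the 62 members with a RefSeq start in Tg and 95.2% and 91.9% in WT, and H3K27ac covered 90.3% and 93.5% in Tg and 91.9% and 91.9% in WT. For all genes the share covered at the start by H3K4me3 was 58.1% to 60.3%, and by H3K27ac 36.7% to 45.4%. H3K4me1 covered the start of 0% and 3.23% of members in Tg and 1.61% and 3.23% in WT, against 6.45% to 14.5% of all genes. At 500 bp before the start H3K4me1 covered 41.9% and 53.2% of members in Tg and 53.2% and 69.4% in WT. At 500 bp after the start it covered 54.8% and 53.2% in Tg and 66.1% and 59.7% in WT. Over all genes it covered 18.1% to 33.9% at 500 bp before the start and 11.9% to 27.1% at 500 bp after it. The gap over the start was thus present in all 4 H3K4me1 libraries, both at histone genes and over all genes.

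**Figure D2:**
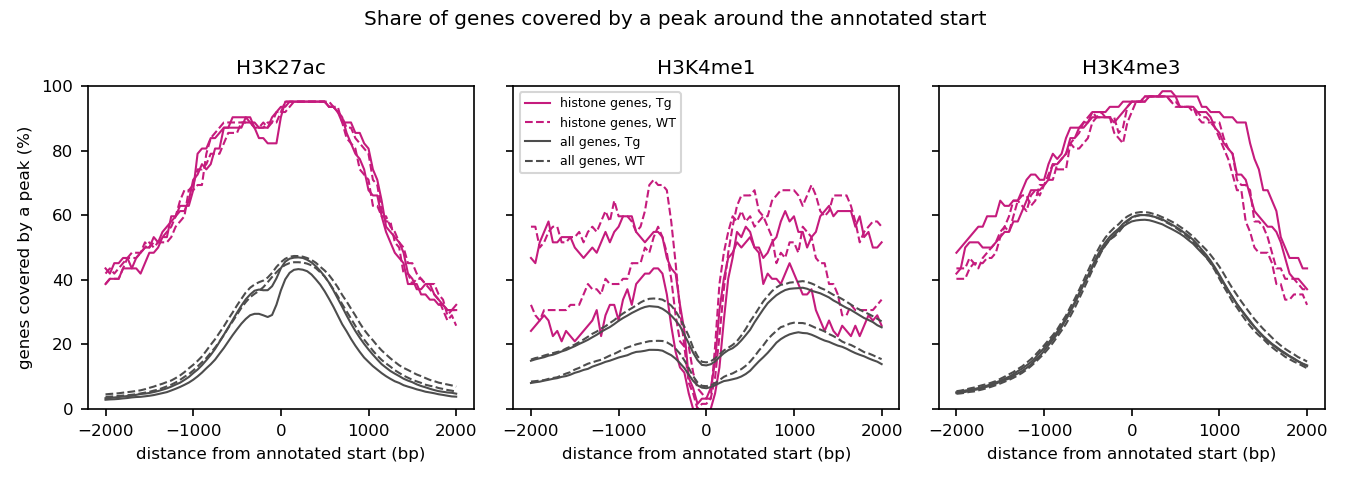
Share of genes (%, y axis) covered by a peak at each distance from the annotated start (bp, x axis; positive is downstream) for 62 histone genes and 16457 genes in all, one line per library, Tg solid and WT dashed. At the start of histone genes H3K4me3 covers 91.9% to 95.2% and H3K27ac 90.3% to 93.5%, whereas H3K4me1 covers 0% to 3.23%, and at 500 bp after it H3K27ac covers 95.2% in every library.

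In the merged loci, 93.1% to 95.9% of the H3K27ac length lay inside H3K4me3 peaks of the same genotype label and replicate number. For H3K4me1 the share was 76.9% and 55.7% in Tg and 73.4% and 53.2% in WT. Matching by label and number does not mean the same mice. Replicate 1 of H3K4me3 has Y-linked peaks that replicate 1 of the other marks lacks, and H3K4me3 peak names carry the opposite genotype. H3K27ac came as 50 and 46 peaks at the 27 loci in Tg and as 42 and 41 in WT, and H3K4me1 as 112 and 133 peaks in Tg and 123 and 128 in WT. In 10 pairs an H2A and an H2B gene face apart, with starts 164 to 281 bp apart. A single H3K27ac peak spanned both starts in 8 and 9 of the 10 pairs in Tg and 9 and 9 in WT. A single H3K4me3 peak did so in 9 and 9 pairs in Tg and 8 and 7 in WT, and no H3K4me1 peak did so in any library. The testis pair H2bc1 and H2ac1 was the only pair where no peak of any mark did so.

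Within the Hist1 cluster the marks lay mostly at the histone genes themselves for H3K27ac and H3K4me3. The Hist1 members with their windows make up 9.71% of a 2223 kb stretch of chromosome 13. That share held 72.3% and 73.9% of the stretch's H3K27ac length in Tg and 72.9% and 75.1% in WT. It held 65.4% and 59.9% of the H3K4me3 length in Tg and 54.5% and 59.6% in WT, and 45.1% and 44.6% of the H3K4me1 length in Tg and 53.2% and 47.5% in WT. Of 50 other protein-coding genes between the members, 5 had H3K27ac in all 4 libraries and 43 had it in none. H3K4me3 was present in all 4 libraries at 7 of these neighbours and in none at 41. Over all genes, 52.4% had H3K27ac and 67.7% had H3K4me3 in all 4 libraries. Most of the 50 are Vmn1r genes, which lie between chr13:22087878 and chr13:23250323. No Vmn1r gene had a peak of any mark within 2 kb, so much of the stretch is a run of genes without such peaks. Hfe, the iron regulator between Hist1 genes, is the neighbour whose window touches a member's window.

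H3K4me3 covered more of the histone genes than H3K4me1 did. In limma on log2(covered bp + 500) over all genes, 38 of 67 members passed a Benjamini-Hochberg adjusted p of 0.05 for H3K4me3 over H3K4me1, and all 38, at 18 loci, were higher in H3K4me3. Over all genes tested 43% were called, 32.8% higher and 10.2% lower. The median log2 difference was 0.69 over the members and 0.42 over all 13994 genes. Without H3K4me3 Tg replicate 1, Tg replicate 2 or WT replicate 1, 20 members were called in each case. Called members were 11 of 18 H2A, 12 of 18 H2B, 7 of 12 H3, 4 of 6 H1 and 4 of 13 H4 genes. They were H1f1, H1f2, H1f4 and H1f5, then H2ac1, H2ac6, H2ac7, H2ac10, H2ac13, H2ac18, H2ac19, H2ac20, H2ac21, H2ac23 and H2ac24. Among H2B genes they were H2bc1, H2bc3, H2bc4, H2bc6, H2bc7, H2bc8, H2bc9, H2bc13, H2bc18, H2bc21, H2bc23 and H4bc24. The fit reads the 2 kb around each gene end, and over its whole span H2bc6 had on average 8244.5 bp of H3K4me3, against 11480 bp of H3K4me1. Among H3 and H4 genes they were H3c1, H3c3, H3c4, H3c7, H3c10, H3c14, H3c15, H4c8, H4c14, H4c17 and H4c18. The 38 include H2bc1 and H2ac1, which have no H3K4me1 peak and entered the fit only through the H3K4me3 peak they share. Their value of 0.68 rests on that filter and on the 500 bp added to each length, so these calls are no independent support.

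The 5 largest of these differences lie in 2 neighbouring Hist1 loci with near-identical promoters. H4c17 had H3K4me3 over 4274 and 4291 bp in Tg and 4242 and 4330 bp in WT. Its H3K4me1 covered 756 and 789 bp in Tg and 629 and 1415 bp in WT. The covered lengths of the marks did not overlap between any libraries there, and the log2 difference was 1.81 (SE 0.20, limma adjusted p = 0.000314). H2ac23, an H2A gene beside it, differed by 1.73 (SE 0.20, limma adjusted p = 0.000452), and H2ac24 in the other locus by 1.68 (SE 0.21, limma adjusted p = 0.000549). The promoters of H2ac23 and H2ac24 are identical over the 200 bases shared by their entries, and those of H4c17 and H4c18 are 99.7% identical, so short reads from these copies may not be told apart. In all, 12 of 62 members have a promoter over 90% identical to another member's, and how reads that match several places were treated is not given in the sources used here.

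At the other end, H4c2, H4c4 and H4c3 had more H3K4me1 than H3K4me3 without passing the threshold. H4c2 had 809 and 3537 bp of H3K4me1 in Tg and 1712 and 2682 bp in WT, beside the H3K4me3 lengths given above, a log2 difference of -0.61 (SE 0.33, limma adjusted p = 0.16). For H4c4 the difference was -0.50 (SE 0.18, limma adjusted p = 0.0502), and for H4c3 -0.29 (SE 0.18, limma adjusted p = 0.21). After quantile normalization over the 8 libraries all 3 passed, at -1.03, -0.77 and -0.65, and the calls among members were 37 higher and 6 lower.

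**Figure D3:**
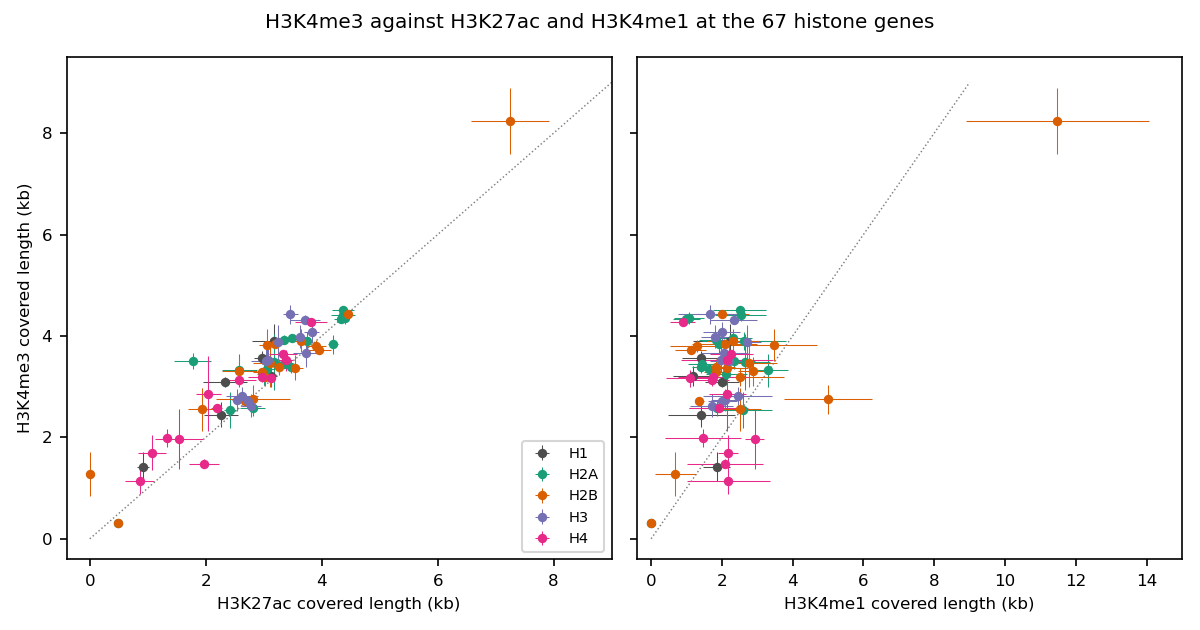
Mean covered length of H3K4me3 (kb, y axis) against H3K27ac (left) and H3K4me1 (right) at the 67 histone genes, coloured by family, with SD bars over the 4 libraries of each mark and a dotted line of equal length. Most points follow the line for H3K27ac, with H2bu2 at 0 on the x axis. For H3K4me1 most lie above the line, while H2bc6, H2bc22 and some H4 genes lie below it.

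H3K4me3 and H3K27ac covered similar lengths at the histone genes. For H3K4me3 over H3K27ac, 23 members at 16 loci were higher and 3 at 2 loci lower at a limma adjusted p of 0.05, 26 of 67, against 80% of all 13192 genes (77.1% higher and 2.91% lower). The median log2 difference was 0.10 over the members and 0.53 over all genes. This split rests on the scale: with quantile normalization, 2 members were higher and 31 lower, the members' median was -0.17 and that of all genes -0.03, and 12 of the 26 called members turned direction. With the replicate number as a block 17 members were called. The number was 16 without H3K4me3 Tg replicate 1, 15 without Tg replicate 2 and 16 without WT replicate 1. The contrasts with H3K27ac and with H3K4me1 share the 4 H3K4me3 libraries. The 13192 genes include genes with no H3K27ac peak, which entered the fit through their 4 H3K4me3 libraries alone. Without any 1 H3K4me3 library such genes drop out, and 10924 to 10941 genes were tested. The median was then 0.43 to 0.48 over all genes and 0.06 to 0.13 over the members.

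Higher in H3K4me3 were H1f1, H1f4, H1f5 and H1f6, then H2ac12, H2ac13, H2ac20 and H2aw, then H2bc4, H2bc12, H2bc14, H2bc21 and H2bu2. Also higher were H3c1, H3c8, H3c10 and H3c14, and the H4 genes H4c3, H4c11, H4c12, H4c14, H4c17 and H4f16. H2bu2, with no H3K27ac peak, differed by 1.79 (SE 0.15, limma adjusted p = 3.4e-05). It entered the fit only through its 4 H3K4me3 libraries, so its call is no independent support for a difference. The value of 1.79 also depends on the 500 bp added to each length, and with 100 bp it was 3.72. H2aw had 3655 and 3530 bp of H3K4me3 in Tg and 3283 and 3535 bp in WT, and differed by 0.83 (SE 0.11, limma adjusted p = 0.000405). H4c3, an H4 gene at chr13:23698084-23698458, had 2217 and 1597 bp of H3K4me3 in Tg and 1505 and 1480 bp in WT, against H3K27ac of 878 and 1425 bp in Tg and 972 and 996 bp in WT. The covered lengths of its 2 marks did not overlap over the 8 libraries, with a difference of 0.49 (SE 0.13, limma adjusted p = 0.00887). It turned to -0.22 with quantile normalization.

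Lower in H3K4me3 were H4c6, H2bc1 and H2ac1. H4c6, an H4 gene at chr13:23551286-23551668, had 1490 and 1435 bp of H3K4me3 in Tg and 1594 and 1398 bp in WT, against H3K27ac of 1963 and 2325 bp in Tg and 1692 and 1910 bp in WT. The covered lengths of its marks did not overlap, at -0.32 (SE 0.08, limma adjusted p = 0.00893). The testis pair H2bc1 and H2ac1, which shares its peaks, differed by -0.30 (SE 0.06, limma adjusted p = 0.00276 for each). H3K27ac was there the wider mark in all 4 libraries of each kind.

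Between the genotype labels, no histone gene passed the threshold for any mark. For H3K27ac, 0 of 66 members tested passed, against 0.0747% of all genes (8 of 10707, of which 1 was higher in Tg, 0.00934%, and 7 were lower, 0.0654%). At an unadjusted p under 0.05 in limma there were 3 members, H4c3, H4c6 and H1f3, and 10.8% of all genes. For H3K4me1, 0 of 65 members passed, against 0% of 13948 genes, with 1 member (H2bu2) and 5.66% of all genes at an unadjusted p under 0.05. For H3K4me3, 0 of 67 passed, against 0% of 13715 genes, with 8 members and 5.05% of all genes at an unadjusted p under 0.05.

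The fitted values for H3K27ac nonetheless leaned to Tg. Of the 66 members, 64 had a higher fitted value in Tg, against 55.3% of all genes. The median log2 difference was 0.18 over the members and 0.03 over all genes. This is a value relative to other genes: without normalization the members' median was -0.00 with 31 of 66 higher, while the median of all genes was -0.16. In covered length as deposited, 7 members at 5 loci lay above WT in both Tg libraries without overlap, against 5.2% of all genes, and 9 at 7 loci lay below, against 45%. Tg H3K27ac lists covered 28.5 and 33.8 Mb of the genome in all, against 45.7 and 36.6 Mb in WT, and the part of this in the result was not tested. The cap on the window also limits how far a member's length can move.

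The members with the largest fitted H3K27ac differences were H1f3, H4c6 and H4c4. H1f3 (chr13:23555032-23555807) had 2614 and 2368 bp in Tg, against 1934 and 2133 bp in WT, without overlap, at 0.42 (SE 0.15, limma adjusted p = 0.44). H4c6 had the lengths given above, without overlap, at 0.38 (SE 0.13, limma adjusted p = 0.42). H4c4 (chr13:23581568-23581969) had 1297 and 1975 bp in Tg, against 1090 and 1776 bp in WT, which overlap, at 0.36 (SE 0.25, limma adjusted p = 0.67). The lowest fitted values were those of H2aw and H4c2, with H3c3 next. H4c2 had 796 and 668 bp in Tg, against 750 and 1234 bp in WT, and H3c3 had 3579 and 3526 bp in Tg, against 3995 and 3831 bp in WT. H3c3 lay lower in both Tg libraries as deposited.

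**Figure D4:**
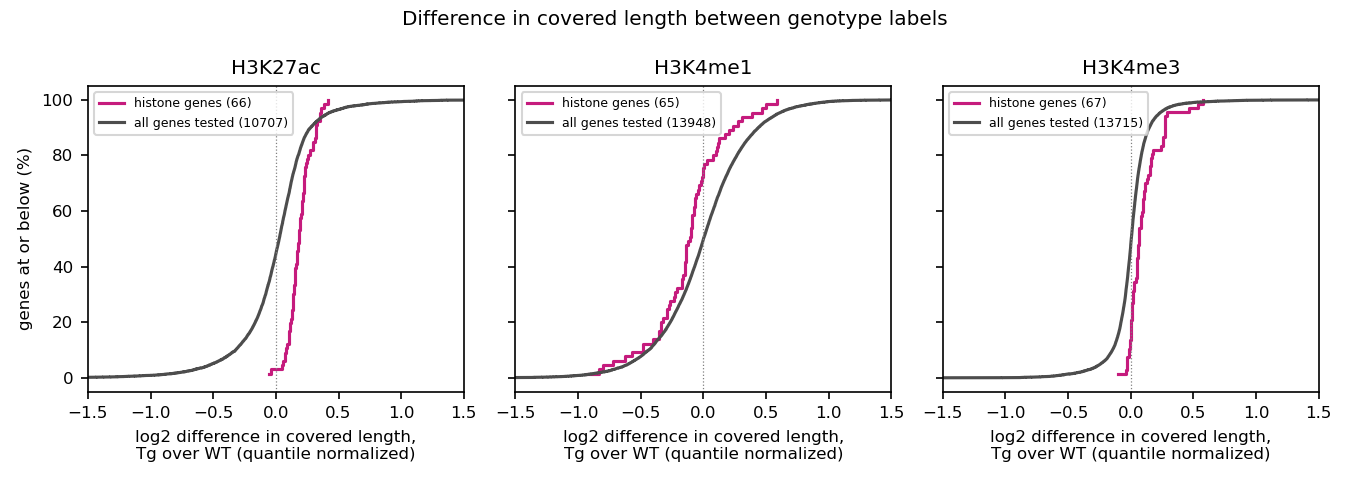
Cumulative share (%, y axis) of histone genes and of all genes tested by fitted log2 difference in covered length, Tg over WT after quantile normalization (x axis, cut at -1.5 and 1.5), for each mark. The H3K27ac curve of the histone genes runs from -0.06 to 0.42 and lies right of that of all genes over most of its range, with medians of 0.18 and 0.03, while 0 members passed the test.

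For H3K4me3, 57 of 67 members had a higher fitted value in Tg, against 52% of all genes, with medians of 0.06 and 0.00. As deposited, 28 members at 16 loci lay above WT in both Tg libraries without overlap, against 13.5% of all genes, and 3 lay below (H2ac18, H2ac21 and H2bc21), against 19%. The peak names in these lists carry the opposite genotype, under which the 28 would be the lower ones. Fitted H3K4me3 was also higher in Tg at 6 of 6 mature granulocyte genes (median log2 difference 0.28) and at 3 of 3 erythroid genes (median 0.39). It was higher at 5 of 11 genes of dividing cells (median -0.02) and at 2 of 8 genes of cKit+ stem and progenitor cells (median -0.03). It was higher at 1 of 2 T cell genes tested (median -0.09) and at 2 of 4 genes of endothelium and stroma (median -0.03). In these lists 0 genes passed the test. Summed H3K4me3 of the granulocyte genes was 34.6 to 47.4 kb in Tg, against 30.3 to 35.5 kb in WT, and of the erythroid genes 8.88 to 10.5 kb in Tg, against 5.10 to 8.82 kb in WT. The part of these in the members' values was not tested. H4c4 had 2641 and 2243 bp in Tg, against 1670 and 1323 bp in WT, at 0.58 (SE 0.10, limma adjusted p = 0.91). H2bu2 followed at 0.54 (SE 0.19, limma adjusted p = 0.91). H4c12, whose promoter is printed above, had 3819 and 3001 bp in Tg, against 2540 and 2082 bp in WT, at 0.47 (SE 0.12, limma adjusted p = 0.91). The groups did not overlap at these 3 genes. H2ac18 (chr3:96245497-96246052) was the lowest, with 3795 and 3601 bp in Tg and 3925 and 4027 bp in WT, at -0.10 (SE 0.06, limma adjusted p = 0.91). H2ac21 and H2bc23 were next, both between -0.04 and -0.03.

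For H3K4me1, 16 of 65 members had a higher fitted value in Tg, against 50.2% of all genes, with medians of -0.11 and 0.00. No member lay above WT in both Tg libraries, against 3.66% of all genes, and 11 members at 5 loci lay below, against 9.69%. The 11 include H2bc7, H2ac7 and H3c4 of one locus and H2ac6, H1f6 and H4c3 of another. H1f6 had 1374 and 1762 bp in Tg, against 2021 and 2269 bp in WT, without overlap. The lowest fitted values were at H1f3 (-0.93, SE 0.50, limma adjusted p = 0.93), H4c9 (-0.83, SE 0.40, limma adjusted p = 0.91) and H2bu2 (-0.80, SE 0.27, limma adjusted p = 0.82). At H4c9 H3K4me1 covered 362 and 2661 bp in Tg, against 2184 and 3417 bp in WT, so the groups overlap and Tg replicate 1 stands lowest. The highest were H4c11 (0.59, SE 0.42, limma adjusted p = 0.94), H2bc22 (0.50, SE 0.23, limma adjusted p = 0.90) and H2bc23 (0.47, SE 0.31, limma adjusted p = 0.93). H4c11 had 878 and 2564 bp in Tg, against 250 and 2165 bp in WT, and its value turned to -0.09 when weaker peaks were left out.

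The H3K27ac peaks at the histone genes ranked higher among other genes in the Tg libraries than in the WT libraries. Each gene's strongest peak within 2 kb of either gene end was ranked by its deposited −log10 q within a library. The ranking took the 9697 genes with such an H3K27ac peak in all 4 libraries. The median percentile of the 66 members was 99.1 and 97.1 in Tg, against 59.7 and 84.0 in WT. The ranks of 65 of the 66 members, at 25 of 26 loci, lay higher in both Tg libraries than in either WT library, against 22.2% of all genes ranked, and 0 lay lower, against 22.7%. H4c14, with percentiles of 89.3 and 70.6 in Tg against 64.5 and 79.7 in WT, was the exception. Ranked by the deposited fold enrichment the medians were 95.04 and 88.4 in Tg, against 59.99 and 70.1 in WT. By that measure 61 of 66 members lay above, against 19.6% of all genes, and 0 below, against 20.1%. This ranking was chosen after earlier results were seen, has no test, and says where histone genes stand among other genes, not how much H3K27ac they carry.

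The spread between the WT libraries was itself large, with medians of 59.7 and 84.0. Members above the 90th percentile numbered 54 and 51 in Tg, against 0 and 20 in WT. Set among all peaks of the library in place of the genes' strongest peaks, the members' median percentile was 99.8 and 99.4 in Tg, against 90.7 and 95.4 in WT, and 65 and 65 members were in the top 10% in Tg, against 41 and 51 in WT. H4c4 had the largest difference in mean percentile, at 61.0 and 94.6 in Tg, against 20.7 and 22.7 in WT. H1f3 stood at 74.3 and 78.9 in Tg, against 23.96 and 35.6 in WT. The testis linker gene H1f6 stood at 85.6 and 72.3 in Tg, against 39.3 and 41.9 in WT, and the pair H2bc1 and H2ac1 at 85.9 and 68.8 in Tg, against 37.1 and 57.6 in WT. The Tg and WT libraries did not overlap at any of these 5 genes. Of the 100 genes whose mean percentile was highest in Tg relative to WT, 13 were members, and 11 when ranked by fold enrichment. Members are 66 of the 9697 genes ranked, and members that share a strongest peak are not separate cases. H2ac23 had a deposited −log10 q of 239 and 291 in Tg and 272 and 326 in WT at its strongest peak, so its values themselves were not higher in Tg while its ranks, at 99.9 and 99.0 against 81.5 and 96.3, were.

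Ranks of the other 2 marks did not separate in this way. For H3K4me3 the median percentile was 42.8 and 31.0 in Tg, against 28.5 and 29.9 in WT, and 26 of 67 members lay above WT in both Tg libraries, against 18.7% of all genes, and 1 below, against 19.9%. For H3K4me1 the medians were 50.9 and 39.3 in Tg, against 49.2 and 44.6 in WT, with 5 of 63 members above, against 17.4%, and 9 below, against 16.8%. The members' medians thus lay in the upper part of the ranked genes in every H3K27ac library and in the lower part in every H3K4me3 library. Among all H3K4me3 peaks of a library the members' median percentile was instead 81.1 and 76.9 in Tg, against 77.3 and 76.4 in WT.

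**Figure D5:**
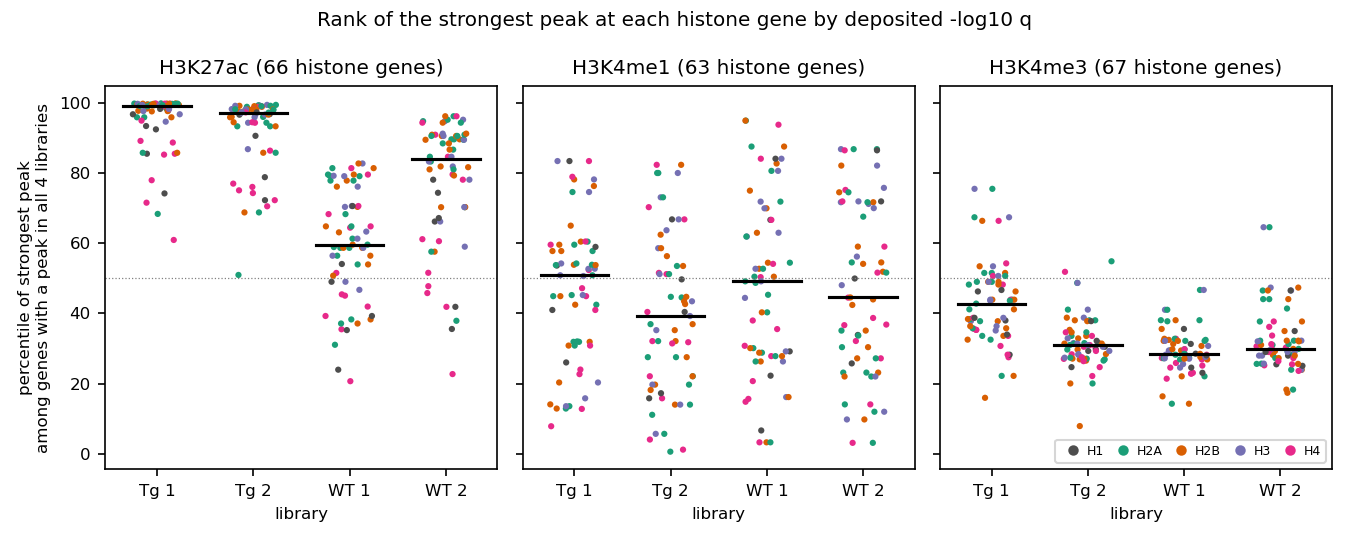
Percentile (y axis) of each histone gene's strongest peak by deposited −log10 q, among genes with a peak in all 4 libraries of the mark, in each library (x axis, Tg left of WT), coloured by family, with bars at the medians. For H3K27ac the bars stand at 99.1 and 97.1 in Tg and 59.7 and 84.0 in WT, whereas for H3K4me3 all lie below 50. Peaks within 2 kb of either gene end were used.

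Genes of related function are given beside these values. A list of 11 genes of dividing cells (such as Mki67, Top2a and Pcna) had median H3K27ac percentiles of 64.2 and 68.2 in Tg, against 71.7 and 73.7 in WT, with 2 of 11 ranked above WT in both Tg libraries. All 11 had H3K27ac in all 4 libraries, over a summed 18.1 to 25.5 kb in Tg, against 28.2 to 31.8 kb in WT. The 6 mature granulocyte genes summed to 19.6 to 20.8 kb of H3K27ac in Tg, against 36.5 to 38.8 kb in WT. The 8 genes of cKit+ stem and progenitor cells summed to 51.5 to 59.1 kb of H3K27ac in Tg, against 62.2 to 71.9 kb in WT. Summed H3K27ac of 4 T cell genes was 1.34 to 2.06 kb in Tg, against 0.822 to 1.14 kb in WT. It was 0.688 to 3.09 kb in Tg, against 0.991 to 1.22 kb in WT, at 3 erythroid genes, and 0.995 to 1.79 kb in Tg, against 3.33 to 3.71 kb in WT, at 4 genes of endothelium and stroma. The part of any of these in the histone genes' ranks was not tested. Replication-independent histone genes, which supply variants such as H3.3 and H2A.Z outside S phase, had 9 of 11 members ranked, with medians of 81.7 and 79.8 in Tg, against 67.3 and 74.7 in WT, and 4 of the 9 above WT. None of that list, nor of 25 genes that transcribe, process and escort histones (such as Npat, Slbp and Asf1b), was called between the labels for any mark. Of the 2 lists, 9 and 24 genes were tested for H3K27ac, and 11 and 24 for each of the other marks. Over all genes 0.0747% were called for H3K27ac and 0% for the other marks. For H3K4me3 over H3K4me1, 8 of 11 replication-independent genes and 14 of 24 tested supply genes were called, all higher, against 32.8% of all genes. For H3K4me3 over H3K27ac they were 6 of 11 and 21 of 24, all higher, against 77.1% of all genes.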

How the data were processed

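The 12 deposited narrowPeak lists, 1 per library and not pooled, give, from the column order of the format, each peak's position, an integer score, the fold enrichment as a ratio and the −log10 p and −log10 q, all as deposited by the authors. Bowtie2, MACS2, SAMtools, Trim Galore, deepTools and FastQC are named with build mm10, without versions or settings, per the submitters' processing notes. Depth, the control library and the treatment of reads with several matches are not given in the sources used here, and peaks are the authors' calls, so covered length moves with depth and threshold. Covered bp within 2 kb of a gene was summed (an overlap of 1 bp counted), with genes and promoters from RefSeq GRCm38.p6. Of the 67 members, 62 matched a promoter entry.

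Fits over all genes used covered bp within 2 kb of either gene end and limma 3.58.1 (R 4.3.3) on log2(bp + 500), with Benjamini-Hochberg adjustment at 0.05. For 64 members of at most 4 kb this equals the rule's window. The exceptions are H2bc6, H2bc22 and H2bc4. Genotype fits were quantile normalized over genes with a peak in 2 of 4 libraries. Mark fits were not normalized, held the genotype as a term, and took genes with a peak in 4 of 8 libraries. Scripts ran in Python 3.11.15 and were tested on simulated data. The members and lists were chosen with earlier results of these data known. Genes were named when past the threshold in any fit, when among the 3 highest, lowest or most covered of a mark, or as linker, testis or small-cluster genes. Others were chosen after their values were seen. Where members were counted as not overlapping, each Tg library lay beyond both WT libraries. One marker list used as a check is not reported here.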

Additional observations from a re-analysis of the deposited data

How the results depend on the processing

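Members called between the genotype labels stayed at 0 for each mark under every alternative run, which included the other scalings, pseudocounts, windows and filters, the replicate block and leaving out each library. Over all genes the H3K27ac call, 8 in the fit reported, was unstable. It gave 0 without normalization, 2 scaled to equal total length, 3 with a pseudocount of 100 bp, 31 with 2000 bp, 5 over the whole gene, 30 within 10 kb, and 0 with peaks of −log10 q of at least 5. It gave 37 with the replicate block, 0 with the crossed pairing chosen after seeing the data, and 0 without any 1 library. For H3K4me1 it was 0, and 1 with a pseudocount of 2000 bp. The labels tie the replicate numbers to no shared animal or batch. After quantile normalization, deviations of libraries with the same number correlated at -0.15 for H3K27ac, 0.19 for H3K4me1 and -0.11 for H3K4me3. That scaling removes shifts of a whole library, so these values cannot show whether such shifts go with the number. Replicate 1 of H3K4me1 covered 70.7 Mb in Tg and 66.3 Mb in WT as deposited, against 117.0 and 119.7 Mb for replicate 2. The Y-linked peaks of H3K4me3 also went with the number. The fits reported took no pairing because the labels give none.

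For H3K4me3 over H3K27ac the genes called were 10551, 6757 with quantile normalization, and 7067 to 10638 when 1 library was left out. Members called were 26, 17 with the replicate block, and 15 to 25 without 1 library. For H3K4me3 over H3K4me1 the genes called were 6016, and 3319 to 6761 without 1 library, and members called were 38, 35 with the replicate block, and 20 to 44 without 1 library. Leaving out a library kept the minimum of 4 libraries with a peak, so fewer genes were tested, and the lone library of a group was assumed to vary like the others. The lowest counts came without an H3K4me3 library. H4c11 in H3K4me1 turned to -0.093 with the stricter peaks, H2ac18 in H3K4me3 to 0.063 within 10 kb, and H4c3 in H3K4me3 over H3K27ac to -0.22 with quantile normalization. The causes were not tested. H2bu2 in H3K4me3 over H3K27ac was 0.48 with quantile normalization and no longer passed. H4c2 and H4c4 in H3K4me3 over H3K4me1 passed at -0.98 and -0.60 without H3K4me1 Tg replicate 1. Members ranked above WT in both Tg H3K27ac libraries numbered 65, 61 by fold enrichment, and 65 to 66 without 1 library. Depth is unknown, so an uncalled peak does not show that a mark is absent.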
